A study of Mus musculus with 8 samples.

Results

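Genes of water and hyaluronan handling in the skin were examined in mouse epidermis: Aqp3, Has2, Has3, Hyal1, Hyal2 and Cd44. They were chosen by name. Each matched 1 Ensembl identifier of the count table through the GRCm38 annotation, so the set is 6 of 34070 identifiers, and all 6 had enough counts to be tested. AQP3 is the channel through which keratinocytes take up water and glycerol. Hyaluronan, a long sugar polymer that binds water, is made at the plasma membrane by hyaluronan synthases, of which HAS2 and HAS3 are encoded here. It is cut by hyaluronidases, including HYAL2, which is anchored at the cell surface, and HYAL1, which works in lysosomes. CD44 is the main cell-surface receptor for hyaluronan on keratinocytes and on leukocytes. Published work in mouse epidermis and human keratinocytes has tied the daily rhythm of AQP3 to the molecular clock, in which BMAL1 is an activator.

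RNA was measured in epidermal cell suspensions from adult mice aged 18 to 25 weeks, taken at zeitgeber time ZT4, that is 4 h after lights on. The 4 Bmal1cKO libraries came from K14-Cre;Bmal1flox/flox mice, in which Cre recombinase under the keratin 14 promoter of basal keratinocytes acts on floxed Bmal1. The 4 Bmal1WT libraries came from K14-Cre;Bmal1wt/wt mice, so both groups carry the Cre. Cells of the suspension that do not come from keratin 14-expressing cells, such as Langerhans cells and T cells, are not the target of this Cre.

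Totals ran from 35685261 to 38656738 counts in Bmal1cKO libraries and from 36353165 to 50396156 in Bmal1WT libraries. Bmal1 itself (symbol Arntl) was at 31.98, 34.4, 37.6 and 30.7 CPM (counts relative to the TMM-scaled library size) in Bmal1cKO replicates 1 to 4, against 46.1, 42.0, 49.1 and 48.7 CPM in Bmal1WT replicates 1 to 4. The groups did not overlap. The log2 fold change was -0.47 ± 0.08 (SE), with an edgeR adjusted p = 0.0611, and it was called lower with the replicate number as a block (0.0358), with sex as a term (0.0342) and by DESeq2 (5.96e-05). Its target Nr1d1 was at 1.91 to 3.06 CPM in Bmal1cKO and 98.5 to 134 CPM in Bmal1WT, and of 7 clock genes used as a check, Bmal1 included, edgeR called 6, 2 higher and 4 lower, and all 7 with the block. Basal keratinocyte markers summed to 20900 to 22300 CPM in Bmal1cKO and 19000 to 20500 CPM in Bmal1WT, which fits the labelled tissue. The labels give no sex. Xist and Y-linked transcripts place replicates 1 and 3 of both groups as female and replicates 2 and 4 as male, so each genotype holds 2 libraries of either sex, and any other property that the odd-numbered libraries share cannot be told apart from sex.

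The 6 transcripts spanned a wide range of abundance. Expressed per length as TPM (transcript abundance from counts and the union of annotated exons), the mean over the 8 libraries was highest for Aqp3, at 150 ± 29.8 TPM (SD). Cd44 followed at 59.4 ± 4.09 TPM, then Hyal1 at 24 ± 2.43 and Hyal2 at 10.3 ± 1.37 TPM. The synthases were lowest, with Has3 at 1.77 ± 0.98 and Has2 at 0.936 ± 0.154 TPM. From Aqp3 down to Hyal2 the lowest library of each gene lay above the highest library of the next gene in this order. Only the ranges of Has3 (0.753 to 3.59 TPM) and Has2 (0.736 to 1.18 TPM) overlapped. The third synthase gene, Has1, was counted at 2, 6, 0 and 5 in Bmal1cKO replicates 1 to 4 and at 3, 10, 5 and 10 in Bmal1WT, too few for a test.

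Promoter sequence was read for the members held in the RefSeq set (GRCm38.p6), 4 of 6, to see whether the motifs bound by clock factors lie next to the start of transcription. Aqp3 and Cd44 are shown, as the gene with the reported link to the clock and the one window with a match. Each is the 250 bases before the RefSeq start, 5′ to 3′ on the gene's own strand, minus for both, at chr4:41098184-41098433 for Aqp3 and chr2:102901666-102901915 for Cd44. Capitals mark the E′-box.
Aqp3: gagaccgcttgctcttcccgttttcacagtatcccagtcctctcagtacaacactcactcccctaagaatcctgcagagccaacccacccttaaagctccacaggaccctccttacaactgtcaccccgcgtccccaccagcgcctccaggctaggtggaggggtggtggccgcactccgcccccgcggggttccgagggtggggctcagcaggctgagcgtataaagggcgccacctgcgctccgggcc
Cd44: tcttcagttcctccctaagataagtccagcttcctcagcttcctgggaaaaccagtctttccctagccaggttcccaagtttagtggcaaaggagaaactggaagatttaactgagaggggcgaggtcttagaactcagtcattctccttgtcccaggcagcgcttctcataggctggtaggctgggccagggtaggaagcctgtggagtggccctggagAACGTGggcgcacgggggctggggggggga

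Searched on both strands were the E-box CACGTG and the E′-box CACGTT, which BMAL1 with its partner CLOCK can bind, and the D-box TTATGTAA or TTACGTAA, bound by DBP. The windows of Aqp3, Hyal1 and Hyal2 held none of these letters. That of Cd44 held 1 E′-box, read as AACGTG on the gene's strand, whose first base lies 30 bases before the start. Of 32851 such windows over all genes, 6.02% held the E-box, 3.85% the E′-box and 0.931% a D-box. A match or its absence in these bases describes the sequence only, and elements farther away were not searched.

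Aqp3 (ENSMUSG00000028435, chromosome 4, 41092722 to 41098183, minus strand) was at 168, 175, 132 and 167 CPM in Bmal1cKO replicates 1 to 4, against 148, 213, 109 and 224 CPM in Bmal1WT replicates 1 to 4. The Bmal1cKO values all lay inside the range of Bmal1WT, and replicate 3 was the lowest of each group. Means were 161 ± 19.3 CPM in Bmal1cKO and 174 ± 54.5 CPM in Bmal1WT (SD, 4 libraries each). On the log2 scale Bmal1cKO over Bmal1WT was -0.11 ± 0.21 (SE), and edgeR gave an adjusted p = 0.941. Its 95% interval, 0.672- to 1.27-fold, leaves room for a change of up to about that size in either direction. The water channel transcript was not called, and the spread within Bmal1WT was larger than the difference between the genotypes.

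Among the males the genotypes did not overlap in Aqp3, while among the females they did. Both male Bmal1cKO libraries (175 and 167 CPM) lay below both male Bmal1WT libraries (213 and 224 CPM), a log2 difference of -0.35 ± 0.07 (SE) that edgeR did not call (adjusted p = 0.128). In the female libraries the values were 168 and 132 CPM in Bmal1cKO and 148 and 109 CPM in Bmal1WT, a log2 difference of 0.23 ± 0.18 (adjusted p = 0.899 in edgeR). The difference between these sex-specific changes, the genotype by sex interaction, was 0.58 ± 0.22 on the log2 scale, with an edgeR adjusted p = 0.736. AQP3 is less abundant in suprabasal than in basal keratinocytes. Summed suprabasal markers ran from 12600 to 19200 CPM in Bmal1cKO and from 18200 to 25000 CPM in Bmal1WT. The lowest library, Bmal1cKO replicate 3, was also the lowest of its group in Aqp3, while Bmal1WT replicate 3, lowest of all in Aqp3, had 18400 CPM. Over the 8 libraries Aqp3 rose with this sum (Pearson's r = 0.57, Spearman's rho = 0.81). Without Bmal1cKO replicate 3 and Bmal1WT replicate 2, r was 0.264. With the sum of basal markers r was -0.36. The part of layer composition in the Aqp3 values was not tested. In bulk RNA, fewer cells of a type and less RNA per cell cannot be told apart.

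**Figure D1:**
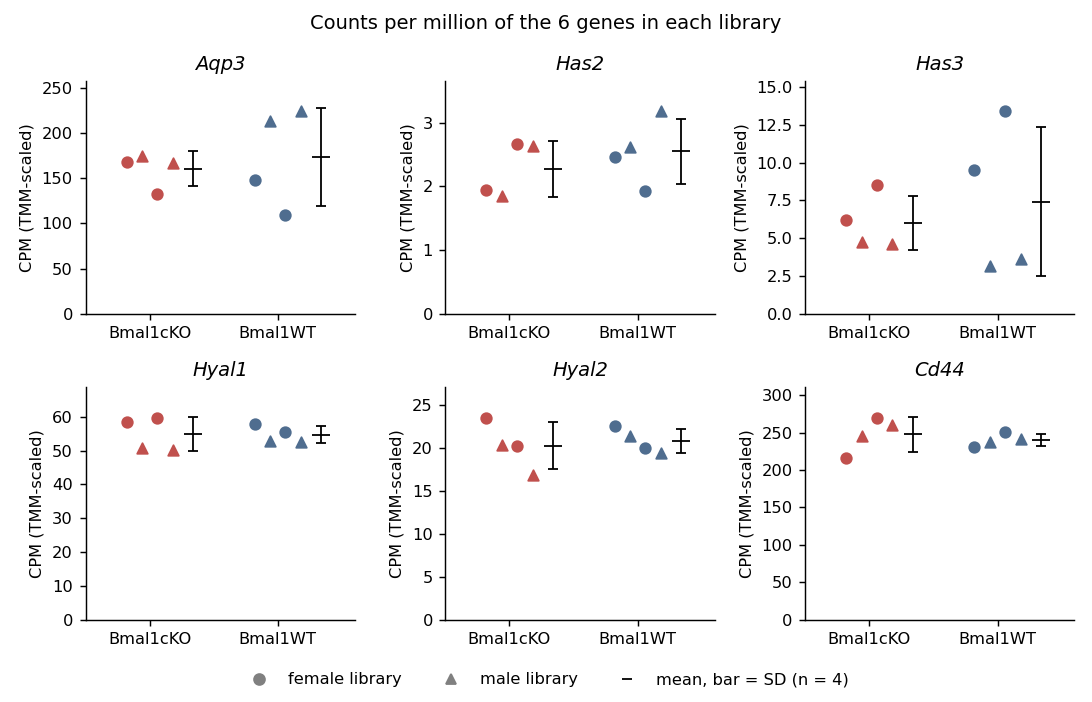
TMM-scaled CPM of Aqp3, Has2, Has3, Hyal1, Hyal2 and Cd44 (1 panel each, y axis from 0) in the 4 Bmal1cKO libraries and the 4 Bmal1WT libraries; circles are female libraries, triangles male libraries, and the black mark with its bar is the mean with SD. The genotypes overlap in all 6 panels, while the female Has3 values (6.18 to 13.4 CPM) all lie above the male ones (3.13 to 4.71 CPM).

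Has3 (ENSMUSG00000031910, chromosome 8, 106870242 to 106884566, plus strand) encodes a synthase of keratinocytes. It was at 6.18, 4.71, 8.50 and 4.604 CPM in Bmal1cKO replicates 1 to 4, against 9.51, 3.13, 13.4 and 3.64 CPM in Bmal1WT, from 173 to 303 counts per Bmal1cKO library and from 122 to 679 per Bmal1WT library. The Bmal1cKO values fell inside the Bmal1WT range, and the females were the highest libraries of both groups. Means were 6.0 ± 1.82 CPM in Bmal1cKO and 7.42 ± 4.92 CPM in Bmal1WT (SD), so that the log2 ratio was -0.31 ± 0.44 (SE) with an adjusted p = 0.923 in edgeR. Its 95% interval, from 0.406- to 1.6-fold, was the widest of the 6. Of its exon length 5.52% is shared with Chtf8 on the other strand, whose identifiers hold 23395 and 22903 counts against 2219 for Has3. The strand setting of the counting is not given in the sources used here. Elsewhere in the same counts, Gm20481, whose exons lie wholly within those of Hspa1a on the other strand, had 53 counts against 137333. The part of Chtf8 in the Has3 counts was not tested, and the Has3 values carry that limit.

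Has2 (ENSMUSG00000022367, chromosome 15, 56665627 to 56694539, minus strand), the synthase that fibroblasts also use, was the least abundant member. It had 75, 72, 95 and 99 counts in Bmal1cKO replicates 1 to 4 and 92, 102, 98 and 144 counts in Bmal1WT. In CPM these were 1.94, 1.85, 2.67 and 2.63 in Bmal1cKO and 2.47, 2.62, 1.93 and 3.18 in Bmal1WT, with overlap of the groups. On the log2 scale the change was -0.16 ± 0.20 (SE), 95% interval 0.658- to 1.21-fold, and edgeR gave an adjusted p = 0.902. Its antisense transcript Has2os, which shares 182 exon bases with it, had 1 to 19 counts per Bmal1cKO library and 14 to 27 per Bmal1WT library. Dermal fibroblast markers, 8 genes summed, were at 71.9 to 106 CPM in Bmal1cKO and 50.9 to 112 CPM in Bmal1WT, and their part in the Has2 counts was not tested.

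The hyaluronidase genes lie side by side on chromosome 9. Hyal2 (ENSMUSG00000010047, 107567945 to 107572779, plus strand) ends 4147 bases before Hyal1 (ENSMUSG00000010051, 107576927 to 107581710, plus strand) begins. Hyal2 was at 23.5, 20.4, 20.3 and 16.9 CPM in Bmal1cKO replicates 1 to 4, against 22.5, 21.4, 20.01 and 19.4 CPM in Bmal1WT. The highest and the lowest of the 8 values were both Bmal1cKO libraries, so the groups overlapped. Bmal1cKO over Bmal1WT was -0.04 ± 0.10 on the log2 scale (SE), 95% interval 0.836- to 1.13-fold, with an adjusted p = 0.965 in edgeR.

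Hyal1 was at 58.5, 50.8, 59.8 and 50.3 CPM in Bmal1cKO replicates 1 to 4, against 57.8, 53.0, 55.5 and 52.6 CPM in Bmal1WT. Of the members it varied least across the 8 libraries (coefficient of variation 6.61%), and its log2 ratio was 0.003 ± 0.070 (SE), 95% interval 0.899- to 1.12-fold, with an adjusted p = 0.997 in edgeR. These counts cannot be read as Hyal1 alone. Of its exon bases 50.8% are also exons of Naa80, the gene of an acetyltransferase for actin, on the same strand, and Naa80 had 18650 counts over the 8 libraries against 17679 for Hyal1. The libraries ranked nearly alike for both, with Pearson's r = 0.937 and Spearman's rho = 0.857 over 8 libraries, on log2 CPM and partly from the same reads. Hyal3, which also overlaps Hyal1, had 1289 counts in all.

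Cd44 (ENSMUSG00000005087, chromosome 2, 102811141 to 102901665, minus strand) was at 216, 245, 270 and 259 CPM in Bmal1cKO replicates 1 to 4, against 231, 237, 251 and 241 CPM in Bmal1WT. The lowest and the highest of the 8 values were both Bmal1cKO libraries. Means were 247 ± 23.6 CPM in Bmal1cKO and 240 ± 8.30 CPM in Bmal1WT (SD), or 0.04 ± 0.07 on the log2 scale (SE, adjusted p = 0.934 in edgeR, 95% interval -0.12 to 0.21 on the log2 scale). The counts sum over the gene, so the splice forms of CD44, which differ between epithelial and other cells, cannot be separated. Langerhans cell markers summed to 244 to 570 CPM in Bmal1cKO and 200 to 534 CPM in Bmal1WT, and T cell markers to 95.9 to 161 CPM and 90.1 to 115 CPM in the same order, with none of the counted markers at 0. The T cell sum covers 7 of the 8 listed markers, since Trgc1 matched no counted identifier. Their part in the Cd44 level was not tested.

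Of the 6 genes, edgeR called 0 as different between Bmal1cKO and Bmal1WT, where 0.173% of all 19646 genes tested were called (34 genes, 17 or 0.0865% in each direction). DESeq2 called 0 of them against 1.28% of all genes, limma voom 0 against 0.148%, the fit with the replicate number as a block 0 against 0.774% and that with sex as a term 0 against 0.606%. An unadjusted edgeR p under 0.05 was reached by 0 of the 6 and by 8.30% of all genes. In the female libraries alone 0 of 6 were called against 0.0657%, and in the male libraries alone 0 of 6 against 0.51%. For 0 of the 6 the genotypes were free of overlap, against 5.15% of genes. The median log2 fold change was -0.08 over the 6 and -0.01 over all genes tested. These counts do not show that the genotypes express the genes alike. The intervals given above are narrowest for Hyal1, Cd44 and Hyal2 and wider for Has2, Aqp3 and Has3.

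**Figure D2:**
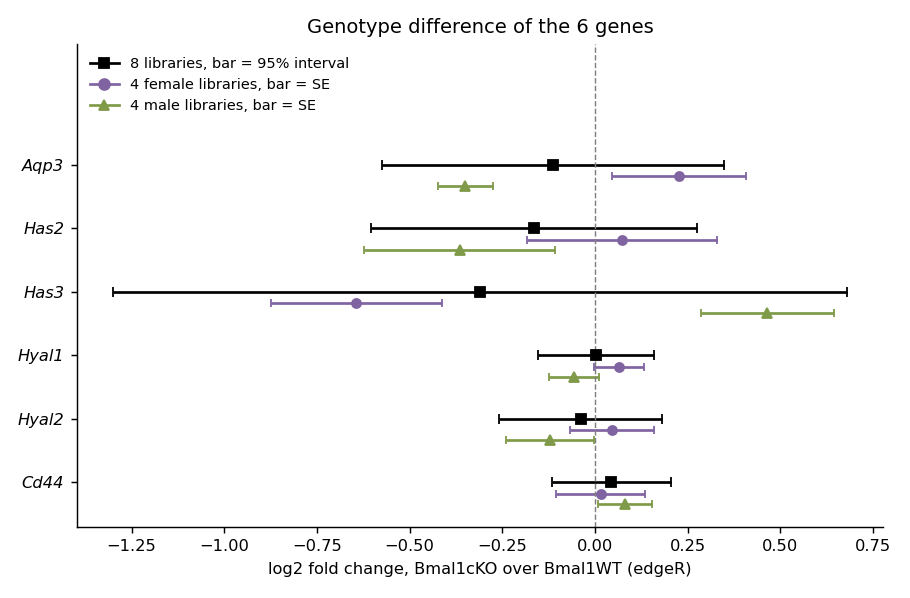
Log2 fold change of each gene, Bmal1cKO over Bmal1WT, from edgeR (x axis); squares are the fit on 8 libraries with its 95% interval, circles the 4 female libraries and triangles the 4 male libraries with SE. All 6 squares have intervals that include 0, and for Has3 the female value (-0.64) and the male value (0.47) lie on opposite sides of it.

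For Has3 the sexes were also compared, a comparison added after the data were seen. The part of Chtf8 in these counts was not tested here either. The female libraries held 6.18 and 8.50 CPM (Bmal1cKO) and 9.51 and 13.4 CPM (Bmal1WT), the male libraries 4.71 and 4.604 CPM (Bmal1cKO) and 3.13 and 3.64 CPM (Bmal1WT), without overlap of the sexes. In a fit with sex and genotype the female over male log2 fold change was 1.21 ± 0.24 (SE), 2.31-fold higher in females, and passed with an edgeR adjusted p = 0.0397. The call was lost in 7 of the 8 fits that left out 1 library (all but that without Bmal1cKO replicate 1), with adjusted p of up to 0.119, while the log2 fold change stayed between 1.00 and 1.41. In Bmal1WT libraries alone it was 1.75 ± 0.21 (edgeR adjusted p = 0.0378), and in Bmal1cKO libraries alone 0.66 ± 0.19 (0.394). The interaction between sex and genotype was -1.10 ± 0.30 and had an edgeR adjusted p = 0.723, so a difference in the sex effect between the genotypes was not called. The sex calls were 0.64% of all genes in Bmal1WT alone and 0.0508% in Bmal1cKO alone, and the interaction was called for 0.00509%. Of the 6 genes, 2 (Has3 and Aqp3) had an unadjusted interaction p under 0.05, as did 6.64% of all genes.

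Langerhans cell markers moved with the same split. Their 9 genes summed to 478 to 570 CPM in female libraries and 200 to 359 CPM in male libraries, and 5 of the 9 were called higher in females. Macrophage and neutrophil markers, 9 genes with none at 0, summed to 7.96 to 11.9 CPM in females and 5.72 to 8.33 CPM in males, with overlap. Only 3 of these 9 had enough counts to be tested, and 1 was called higher in females. Whether these cells contribute to the Has3 counts was not tested. Of the 6 genes, 1 was called between the sexes, and over all genes 1.84% were, 1.18% as higher and 0.657% as lower in females. An unadjusted p under 0.05 was found for 3 of the 6 and for 17.9% of all genes, and the sexes did not overlap for 2 of the 6 and for 9.83% of all genes.

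Hyal1 was the other member whose sexes did not overlap, at 55.5 to 59.8 CPM in females and 50.3 to 53.0 CPM in males, and it was not called (0.16 ± 0.05, edgeR adjusted p = 0.124). Aqp3 was at 109 to 168 CPM in females and 167 to 224 CPM in males (-0.48 ± 0.14, edgeR adjusted p = 0.129). It was called in 3 alternatives: by DESeq2 (adjusted p = 0.0117), and in edgeR without a filter on low counts (2e-10) and without Bmal1cKO replicate 1 (0.0351). The other 12 did not call it, among them limma voom (adjusted p = 0.121) and edgeR on Bmal1WT (0.0874) or Bmal1cKO (0.662) libraries alone. For Hyal2, Has2 and Cd44 the female over male log2 fold changes were 0.15, -0.19 and -0.02, with edgeR adjusted p of 0.424, 0.672 and 0.915.

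Has3 and Aqp3 ran in opposite directions across the libraries. On log2 CPM, Pearson's r was -0.949 and Spearman's rho -0.881 over 8 libraries, and r was -0.935 without the libraries farthest from the Has3 median (Bmal1WT replicates 3 and 1). Bmal1WT replicate 3 had the highest Has3 and the lowest Aqp3, while the male Bmal1WT libraries had the lowest Has3 and the highest Aqp3. The points share the sex split described above, and each sex holds 4 libraries, too few for a coefficient of its own.

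The gene whose pattern was most like that of Has3, among 10818 tested genes with a mean of at least 10 CPM, was Gfpt1. It encodes the enzyme that commits sugar to the hexosamine pathway, which supplies the N-acetylglucosamine for hyaluronan. Gfpt1 was at 27.2, 25.5, 28.7 and 25.3 CPM in Bmal1cKO replicates 1 to 4, against 28.7, 22.2, 31.4 and 24.6 CPM in Bmal1WT. Both genes ranked the 8 libraries in the same order (Spearman's rho = 1.0, Pearson's r = 0.98, and 0.967 without Bmal1WT replicates 3 and 1). The range of Gfpt1 was narrow, 1.41-fold from lowest to highest library against 4.28-fold for Has3. Its female over male log2 fold change was 0.25 ± 0.07 (edgeR adjusted p = 0.107). With so many genes compared over 8 libraries, high coefficients also arise for genes without a link, and the value is a description.

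**Figure D3:**
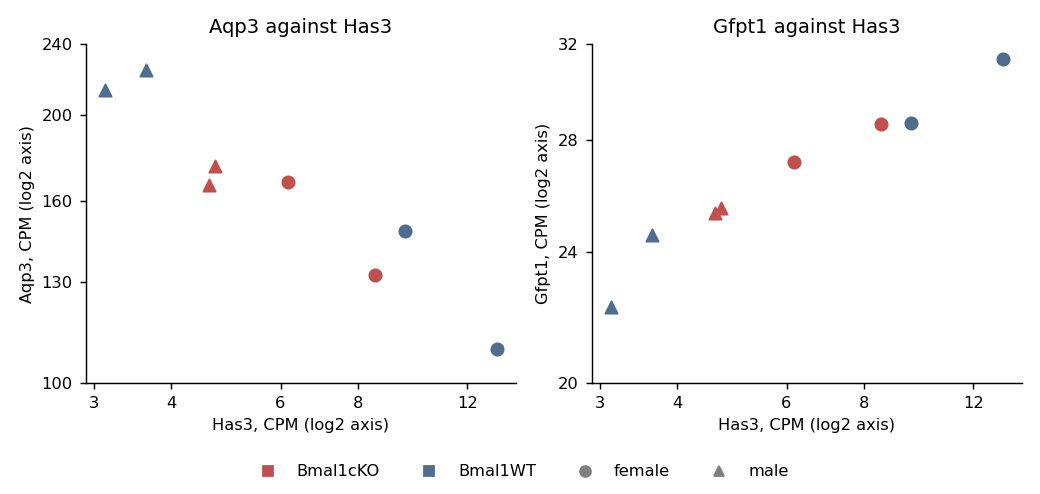
CPM of Aqp3 (left) and of Gfpt1 (right) against CPM of Has3 in the 8 libraries, on log2 axes; colours give the genotype, circles are female and triangles male libraries. At the highest Has3 value (13.4 CPM) Aqp3 is at its lowest (109 CPM) and Gfpt1 at its highest (31.4 CPM).

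Cd44 and Hyal2 varied with stress transcripts. The 10 immediate-early and heat shock genes that respond to tissue dissociation, such as Fos and Atf3, summed to 8210, 13800, 13800 and 17100 CPM in Bmal1cKO replicates 1 to 4, against 8870, 9470, 12500 and 12800 CPM in Bmal1WT. Cd44 was higher in libraries with more of these transcripts (Pearson's r = 0.854, Spearman's rho = 0.905, 8 libraries), although r was 0.657 without Bmal1cKO replicate 1 and Bmal1WT replicate 1. Hyal2 was lower in them (r = -0.925, rho = -0.81, and r = -0.832 without the same libraries). These coefficients were picked after the values were seen, and the part of dissociation in either gene was not tested.

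**Figure D4:**
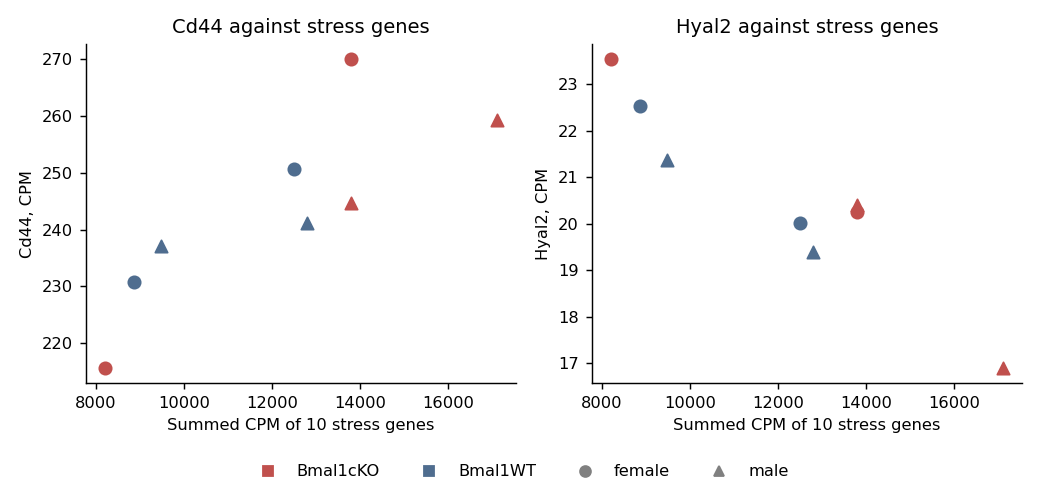
CPM of Cd44 (left) and Hyal2 (right) against the summed CPM of 10 dissociation stress genes in the 8 libraries; colours give the genotype, circles are female and triangles male libraries, and the axes do not start at 0. Bmal1cKO replicate 1 has the lowest stress sum with the lowest Cd44 (216 CPM) and the highest Hyal2 (23.5 CPM).

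The wider pathways were covered by 8 lists, of which 107 genes beside the 6 members were in the table and 83 were tested. edgeR called 1 of the 83 between Bmal1cKO and Bmal1WT, which was higher, where 0.173% of all genes were called. An unadjusted p under 0.05 was found for 6 of them (7.23%, against 8.30% of all genes), and the median log2 fold change was -0.02.

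Among water channels, 4 of the 12 aquaporin genes were tested and 0 called, with a median log2 fold change of -0.23. Aqp3 far exceeded the next, Aqp9, a glycerol and water channel, at 4.25 TPM over the 8 libraries. Aqp9 averaged 9.36 ± 3.34 CPM in Bmal1cKO and 12 ± 1.81 CPM in Bmal1WT (-0.36 ± 0.25, edgeR adjusted p = 0.776), with Bmal1cKO replicate 3 the lowest at 4.77 CPM and a log2 fold change of -0.14 without it. Aqp1 and Aqp11, both under 1 CPM on average, had log2 fold changes of -0.35 and 0.25.

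Of 14 genes that supply or use glycerol, 0 passed and the median was -0.03. Gpd1, which converts glycerol 3-phosphate, had the smallest p, with 4.17 ± 1.74 CPM in Bmal1cKO and 1.68 ± 0.289 CPM in Bmal1WT, no overlap of the groups, and a log2 difference of 1.31 ± 0.30 (adjusted p = 0.181 in edgeR and 0.00312 in DESeq2). The lipolysis genes Abhd5 and Lipe were at -0.19 ± 0.09 and -0.24 ± 0.15. The desaturase gene Scd1, the most abundant of the list, was at 0.22 ± 0.19 on the log2 scale.

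Osmolyte and urea transport gave 0 calls among 8 tested genes and a median of -0.04. The gene closest to the threshold was Slc6a6, the transporter of the osmolyte taurine. It was at 225, 186, 186 and 225 CPM in Bmal1cKO replicates 1 to 4, against 372, 362, 262 and 325 CPM in Bmal1WT. All Bmal1cKO values lay below all Bmal1WT values, and the log2 fold change was -0.68 ± 0.12 (SE) with an edgeR adjusted p = 0.0752. It was called lower with the replicate block (edgeR adjusted p = 0.0169), in a fit that includes sex (0.0475), by DESeq2 (1.4e-05), with no filter on low counts (0.0224) and without Bmal1WT replicate 3 (0.0163). The other 11 alternatives did not call Slc6a6. Among these were limma voom (adjusted p = 0.0766), and in edgeR RLE scaling (0.0765), females alone (0.839) and males alone (0.0538). Slc16a10, an amino acid transporter gene, was at 0.25 ± 0.10 and Akr1b3, which makes sorbitol, at -0.06 ± 0.05.

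The 14 tested genes of hyaluronan synthesis, from sugar phosphates to the synthases, gave 0 calls and a median of -0.01. Pgm3 shares 28.3% of its exon length with a gene on the other strand, whose part in its counts was not tested. The smallest p belonged to Pgm3 (-0.18 ± 0.09), then Nagk (-0.12 ± 0.07) and Gpi1 (0.12 ± 0.08), all enzymes of sugar phosphate or amino sugar metabolism. Gpi1 was also the most abundant. Hyaluronan breakdown gave 0 calls among 9 tested genes and a median of -0.04. Hyal4, a hyaluronidase family gene, was at -1.05 ± 0.53 and Gusb, which encodes lysosomal beta-glucuronidase, at 0.15 ± 0.09, with edgeR adjusted p of 0.651 and 0.709. Without Bmal1WT replicate 3 the Hyal4 value was -0.23.

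Among hyaluronan receptors and binding proteins 0 of 11 tested genes passed, with a median of 0.04. Lyve1, a receptor of lymphatic vessels and some macrophages, was at 0.237 ± 0.0964 CPM in Bmal1cKO and 0.533 ± 0.182 CPM in Bmal1WT (-1.15 ± 0.37, edgeR adjusted p = 0.427). C1qbp was at 0.22 ± 0.10 and Habp4 at -0.20 ± 0.09.

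The 1 called gene, Mmp14, was among 16 partners and processing enzymes of CD44, whose median was 0.07. It encodes a membrane-bound metalloprotease that can cleave CD44 at the cell surface. Mmp14 was at 109, 106, 110.5 and 102 CPM in Bmal1cKO replicates 1 to 4, against 84.5, 88.0, 82.0 and 81.4 CPM in Bmal1WT, without overlap. It rose by 0.35 ± 0.05 on the log2 scale (SE, edgeR adjusted p = 0.022). The call was lost in 6 of the 8 fits without 1 library, all but those without Bmal1cKO replicate 4 and Bmal1WT replicate 2, with adjusted p of up to 0.101. Nor was Mmp14 called in females alone (0.405, edgeR adjusted p = 0.382) or in males alone (0.301, edgeR adjusted p = 0.174). Ezr, which encodes the linker ezrin and was the most abundant of the list, was at -0.11 ± 0.06, and Mmp9 differed between the sexes, at 9.28 CPM in females and 3.61 CPM in males (1.46 ± 0.29, edgeR adjusted p = 0.0406). Of 13 growth factor, cytokine and receptor genes that induce hyaluronan or CD44, 0 were called, with a median of -0.01. Tgfb1 was at 0.28 ± 0.13, Il1a at -1.38 ± 0.64 and Egfr at 0.11 ± 0.06, with edgeR adjusted p of 0.599 to 0.634, and the abundant tetraspanin gene Cd9 at -0.01 ± 0.06. Without Bmal1WT replicate 3 the Il1a value was -0.34. Il1a had only 211 counts over the 8 libraries, so it is uncertain. It shares 11.25% of its exon length with Gm14023 on the other strand (685 counts), whose part was not tested.

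**Figure D5:**
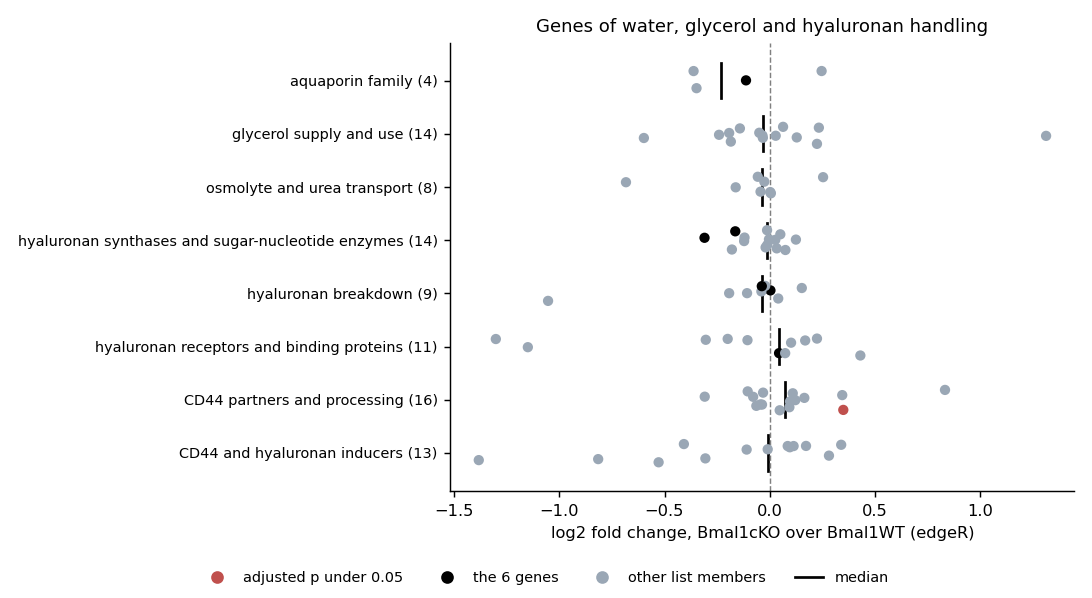
Log2 fold change, Bmal1cKO over Bmal1WT (x axis, edgeR), of every tested gene of 8 lists (rows, with the number tested in brackets; vertical jitter only separates points). Black points are the 6 genes, the red point is the called gene Mmp14 (0.35), and bars are list medians, which run from -0.23 for aquaporins to 0.07 for CD44 partners.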

How the data were processed

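Libraries were polyA-selected and strand-marked, per the labels' protocols. What the authors deposited is a table of raw read counts by Ensembl identifier. The tools named in the submitters' processing notes are Trim Galore, STAR 2.7.10a and featureCounts, with GRCm38 (mm10). For the strand setting and for reads that fit several genes the sources used here give nothing. The identifiers of Chtf8, both on the strand opposite to Has3, hold 23395 and 22903 counts, so reads in exons shared on 1 strand appear to be counted for each gene. Across strands the counts differ. Gm20481, wholly within Hspa1a exons on the other strand, had 53 counts against 137333. Gm44323, wholly within Krt5 exons on the other strand, had 238 against 2757158. Counting thus appears to have kept the strands apart, although the setting itself is not stated. GENCODE M21 gave symbols and exon lengths for 33921 of 34070 identifiers.

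Low counts were removed with filterByExpr. A gene was kept with at least 15 counts in total and a minimum count of 10, scaled to library size, in as many libraries as the smallest group holds. The rest were scaled by TMM and tested with edgeR 4.0.16 in R 4.3.3 (quasi-likelihood F-test, genotype only, two-sided, Benjamini-Hochberg over 19646 genes, called at an adjusted p under 0.05). SE is the absolute log2 fold change over the root of F. The fit was tested on simulated data. DESeq2 1.42.0, limma voom 3.58.1, RLE scaling, no filter, a replicate block, sex as a covariate, each sex alone and leaving out each library were alternatives. Same-numbered libraries deviated together (r = 0.327, 0.483, 0.388 and 0.365 across genes, all over the minimum of 0.1), so the numbers, from the titles, pair the samples by that rule, although same-sex libraries of other numbers also did (0.146 to 0.345). Separate animals for each library are not stated. Female and male libraries of a group cannot come from the same animal, but libraries of the same sex may. The spread behind the p values may therefore be technical in part. No 2 libraries of a group agreed within counting noise (chi-square per degree of freedom 13.15 to 49.28).

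The members and lists were chosen with earlier results of these data known. Named are the 6 members. Also named, from each list, are called genes (otherwise the 3 with the smallest p) and the gene with the highest level per length. For each member the 3 genes with the highest Pearson correlation on log2 CPM (prior count 2, mean of at least 10 CPM) are named. Genes called between the sexes or under the block (Mmp9, Slc6a6) were added after their values were seen. One gene that this rule names is not reported here. Of the list symbols, Tmem2 was matched as Cemip2.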

Additional observations from a re-analysis of the deposited data

Results flagged for a closer look

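Has3 had opposite genotype differences in the sexes. Both female Bmal1cKO libraries (6.18 and 8.50 CPM) lay below both female Bmal1WT libraries (9.51 and 13.4 CPM), while both male Bmal1cKO libraries (4.71 and 4.604 CPM) lay above both male Bmal1WT libraries (3.13 and 3.64 CPM). The log2 fold changes were -0.64 ± 0.23 in females and 0.47 ± 0.18 in males (SE, edgeR adjusted p of 0.839 and 0.387), and the interaction of -1.10 ± 0.30 missed the threshold after adjustment over all genes (edgeR adjusted p = 0.723, 0.276 by DESeq2 and 0.745 by limma voom). Its unadjusted edgeR p of 0.00634 stands against 6.64% of all genes with an unadjusted interaction p under 0.05.

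Hyal1 met the same criterion with small differences. The values were 58.5 and 59.8 CPM in female Bmal1cKO against 57.8 and 55.5 CPM in female Bmal1WT libraries, and 50.8 and 50.3 CPM in male Bmal1cKO against 53.0 and 52.6 CPM in male Bmal1WT libraries. The interaction was 0.12 ± 0.09 (edgeR adjusted p = 0.785). Within the genotypes, 0 of 12 sets of 4 values held a library far enough from the others to pass Dixon's test.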

How the results depend on the processing

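For the 6 genes, 0 calls between the genotypes arose under any alternative run. Directions of their log2 fold changes were less stable. Cd44 kept its sign in all 16 alternatives. In the female libraries alone Aqp3 was at 0.227, Has2 at 0.073 and Hyal2 at 0.047, and in the male libraries alone Has3 was at 0.465 and Hyal1 at -0.057, all opposite in sign to the full fit. Hyal1 also turned to -0.000451 with limma voom, -0.00014 with the replicate block and -0.000222 with sex as a covariate. Leaving out 1 library gave ranges of -0.281 to 0.041 for Aqp3, -0.278 to -0.031 for Has2, -0.555 to 0.148 for Has3, -0.036 to 0.049 for Hyal1, -0.118 to 0.047 for Hyal2 and 0.005 to 0.105 for Cd44. Sign changes came for Aqp3 without Bmal1WT replicate 2 (0.005) or 4 (0.041), for Has3 without Bmal1WT replicate 3 (0.148), for Hyal2 without Bmal1cKO replicate 4 or Bmal1WT replicate 1, and for Hyal1 without Bmal1cKO replicate 1 or 3 or Bmal1WT replicate 2 or 4.

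Over all genes, 34 calls became 252 with DESeq2, 71 without a filter, 152 with the replicate block, 119 with sex as a covariate, 13 in females alone and 101 in males alone, and 23 to 32 without 1 library. The 1 call among related genes became 3 with DESeq2, 2 without a filter, 2 with the replicate block, 2 with sex as a covariate, 0 in females alone, and 0 to 1 without 1 library. The replicate block changed no other call given in the text than those of the counts, Slc6a6 and Bmal1.

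The alternatives for sex were chosen after seeing the data. The female over male value of Has3 ran from 1.0 to 1.41 without 1 library and was 0.655 in Bmal1cKO alone, where it was not called; adjusted p over the alternatives ran from 1.03e-17 without a filter to 0.394. That of Has2 was 0.037 in Bmal1cKO alone, and that of Cd44 0.00392 in Bmal1WT alone and -0.088 to 0.045 without 1 library. Among related genes, signs turned in females alone for Aqp1 (0.128), Scd1 (-0.084) and Cd9 (0.033), in males alone for Aqp11 (-0.259), Akr1b3 (0.00753) and Hyal4 (0.154), and without 1 library for Aqp1 (-0.587 to 0.162), Aqp11 (-0.197 to 0.424) and Cd9 (-0.0277 to 0.0183). The cause was not tested for any of these. Has2, at 72 to 144 counts per library, and Has3, at 122 to 679, had the fewest counts of the 6 genes.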

Other observations

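The genes most like the other members across the 8 libraries, by Pearson's r on log2 CPM, are given as a description. For Aqp3 they were Ccdc91 (0.964), the pseudogene Uqcrh-ps1 (0.959) and Gm45454 (0.957). For Has2 they were Tmem219 (0.934), Tex10 (0.926) and Tfpt (0.918). Besides Gfpt1, Has3 was most like Atp2b1, a plasma membrane calcium pump gene (0.969), and Flvcr1, a heme exporter gene (0.969). For Hyal1 they were Api5 (0.973), Rtn4rl1 (0.972) and Rbm18 (0.964), for Hyal2 Kpna6 (0.960), Wipi2 (0.960) and Rab5b (0.958), and for Cd44 Rbm25 (0.963), Tab3 (0.954) and Tada2a (0.926). Of these, Flvcr1 and Rtn4rl1 were called higher in females (edgeR adjusted p of 0.0285 and 0.043).

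Has3 over Has2, as a ratio of TPM, was 2.12 and 2.12 in female Bmal1cKO and 2.56 and 4.6 in female Bmal1WT libraries, and 1.69 and 1.16 in male Bmal1cKO and 0.794 and 0.761 in male Bmal1WT libraries. Has2 was thus the more abundant synthase transcript per length in the male Bmal1WT libraries alone. The coefficient of variation over the 8 libraries was 52.4% for Has3 and 23.0% for Aqp3. These were higher than in 97.4% and 97.1% of genes within 2-fold of each gene's mean CPM, while Has2, Hyal1, Hyal2 and Cd44 lay between 47.4% and 65.6% of such genes.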
